A study of Mus musculus with 16 samples.

Results

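The matrix metalloproteases, the ADAMTS proteases and their tissue inhibitors were followed across 16 mouse brain tumour transcriptomes. The members were all genes whose symbol is Mmp with a number and at most 1 letter, Adamts with a number, or Timp1 to Timp4, which gave 44 of the 26466 genes in the table: 21 Mmp genes, 19 Adamts genes and 4 Timp genes. All 44 passed the filter on low values (3 or more libraries with a normalized count reaching 10), as did 26463 of the 26466 genes.

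The tumours belong to a pair of mouse models of glioblastoma named Type 1 and Type 2, which the study describes as lineage-based, and each was sequenced with and without depletion of tumour-associated macrophages (TAM). There were 4 Type 2 TAM depleted, 4 Type 2 Control, 3 Type 1 TAM depleted and 5 Type 1 Control tumours, all labelled as transplanted, so Control here means a transplanted tumour and not normal brain. The sources used here do not give how the macrophages were depleted, what the Control tumours received, the driver alleles, the cells of origin, the strain, the sex or the age. The question of each within-type comparison is how tumour RNA differs when macrophages were depleted. Nothing in the labels ties the tumours to separate animals or transplanted lines, so p-values measure only the spread between these samples, which may be technical.

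Matrix metalloproteases are zinc enzymes that cut collagens, laminins and other matrix proteins. Most are made as inactive precursors and are switched on by removal of a prodomain, in part by other proteases at the cell surface. ADAMTS enzymes are secreted relatives that trim proteoglycans such as aggrecan, brevican and versican or process procollagen, and the tissue inhibitors block the active sites of both families to differing degrees. In brain tumours these enzymes are known from invasion, vessel growth and turnover of the hyaluronan-rich brain matrix, and they are made by tumour cells, macrophages, vessels and fibroblasts, with Mmp24 best known from neurons.

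Library quality moved with some groups. Recovered reads came to 6.72 to 18.3 M in Type 2 TAM depleted, 4.21 to 14.7 M in Type 2 Control, 14.3 to 16 M in Type 1 TAM depleted and 5.83 to 7.63 M in Type 1 Control tumours (M, mega). Reads in 997 olfactory and vomeronasal receptor genes, known from sensory neurons of the nose, lay at 2717 to 8650 per M reads in 9 libraries, here called high-background, and at 96.95 to 810.9 in the other 7, here called low-background. The predicted gene Gm10800 alone took 13.8 to 58.2% of reads in high-background and 0.0491 to 2.03% in low-background libraries. All 5 Type 1 Controls were high and all 3 Type 1 TAM depleted tumours low, so in Type 1 background, depth and treatment cannot be told apart. Type 2 held 2 of each kind in either group. Y-linked sums, given below, did not overlap between depleted and Control tumours in either type. Sex, which the sources do not give, and treatment therefore cannot be told apart. Macrophage and microglia markers summed to 1816.4 to 3940.2 normalized counts in Type 2 TAM depleted tumours against 3801.9 to 9988.9 in Type 2 Control, with 14 of 14 lower and 3 past the test (Adgre1, Ptprc and Fcer1g). Type 2 TAM depleted 4 held the 3940.2, above Type 2 Control 3 at 3801.9, while the other depleted tumours held 1816.4 to 2145.4. The same sum was 1659.7 to 3428.2 in Type 1 TAM depleted tumours against 1896.1 to 3645 in Type 1 Control, with 12 of 14 lower and none past the test.

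The start regions of some members are shown first. The first 5 are those of the Mmp cluster on chromosome 9 that hold the AP-1 motif TGANTCA. None of these passed the test in any comparison. The cluster genes without the motif, Mmp8, Mmp12 and Mmp27, are not shown. The other regions belong to 4 of the 5 members that passed the test in some comparison (Mmp2 had no entry). Each is the stretch from 120 bases before to 30 bases after the RefSeq start on GRCm38.p6, and capitals mark TGANTCA or TATAAA, the first searched on both strands, since it reads the same on either, and the second on the strand of the gene. No match of one overlaps a match of the other in the stretches shown.
Mmp13, chr9:7272394-7272543, plus strand: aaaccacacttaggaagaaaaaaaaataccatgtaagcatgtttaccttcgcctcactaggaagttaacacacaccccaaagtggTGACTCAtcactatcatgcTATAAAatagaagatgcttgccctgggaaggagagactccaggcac
Mmp3, chr9:7445702-7445851, plus strand: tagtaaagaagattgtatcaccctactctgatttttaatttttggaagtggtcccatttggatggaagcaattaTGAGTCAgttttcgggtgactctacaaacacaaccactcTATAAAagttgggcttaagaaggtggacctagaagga
Mmp1a, chr9:7464021-7464170, plus strand: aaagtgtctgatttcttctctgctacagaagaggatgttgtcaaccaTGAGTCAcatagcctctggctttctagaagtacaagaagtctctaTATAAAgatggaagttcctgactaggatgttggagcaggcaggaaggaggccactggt
Mmp10, chr9:7502222-7502371, plus strand: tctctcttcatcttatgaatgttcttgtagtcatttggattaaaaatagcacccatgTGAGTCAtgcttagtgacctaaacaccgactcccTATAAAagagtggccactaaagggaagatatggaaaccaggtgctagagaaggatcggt
Mmp20, chr9:7628111-7628260, plus strand: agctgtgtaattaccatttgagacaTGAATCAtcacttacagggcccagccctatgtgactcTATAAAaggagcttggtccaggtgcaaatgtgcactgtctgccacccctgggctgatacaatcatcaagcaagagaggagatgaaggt
Mmp24, chr2:155775222-155775371, plus strand: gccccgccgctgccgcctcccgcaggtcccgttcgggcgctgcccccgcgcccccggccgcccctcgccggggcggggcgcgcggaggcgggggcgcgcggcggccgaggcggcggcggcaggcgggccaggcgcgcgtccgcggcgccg
Adamts12, chr15:11064653-11064802, plus strand: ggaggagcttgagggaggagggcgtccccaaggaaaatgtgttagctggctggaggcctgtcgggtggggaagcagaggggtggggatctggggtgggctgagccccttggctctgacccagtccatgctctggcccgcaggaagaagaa
Adamts1, chr16:85803084-85803233, minus strand: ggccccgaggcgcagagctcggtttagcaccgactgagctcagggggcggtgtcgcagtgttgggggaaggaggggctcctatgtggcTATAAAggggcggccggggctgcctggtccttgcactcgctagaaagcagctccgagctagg
Timp1, chrX:20870046-20870195, plus strand: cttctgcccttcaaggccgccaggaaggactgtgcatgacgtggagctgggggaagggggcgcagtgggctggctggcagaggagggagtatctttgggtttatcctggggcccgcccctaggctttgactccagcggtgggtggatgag
RefSeq windows of 300 bases, from 250 before to 50 after the start, were found for 30 of the 44 members. TGANTCA stood in 5 of the 30 member windows (16.7%), against 7.81% of all 32851 windows, and all 5 lay among the 8 genes of the chromosome 9 cluster. TATAAA stood in 7 of the 30 (23.3%), against 8.32% of all windows, and again 5 of the 8 cluster genes held it. The Mmp24 window held neither motif and was 80% G or C, while Adamts1 had TATAAA at position -32. These matches are letters in a window and say nothing of binding.

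Levels were compared between members per kilobase of annotated exon, as normalized counts per kb averaged over the 4 group means. Timp2, an inhibitor that also helps Mmp14 activate Mmp2, stood highest at 381.8. It was followed by the membrane protease Mmp15 at 136.8, the matrix-bound inhibitor Timp3 at 128.9, Adamts1 at 90.49 and Timp1 at 83.46. Next came Mmp24 at 75.98, Mmp2 at 71.8, Mmp17 at 68.61, Mmp16 at 61.77 and Timp4 at 59.48. The lowest was Adamts15 at 5.41 normalized counts per kb. Neighbours in this order overlap: the group means of Timp2 ran from 216 to 666.5 normalized counts per kb, those of Mmp15 from 61.58 to 323.7 and those of Timp3 from 56.67 to 263. In Mmp15 1 library stood apart, Type 2 Control 4, with 5025.8 normalized counts against 464.7 to 793.3 in the other Type 2 Controls. Choroid plexus markers summed to 6122.2 normalized counts in that library, against 18.36 to 278.8 in the other Type 2 Controls, and their part in the Mmp15 value was not tested. Without that library, a setting chosen after seeing the data, Mmp15 averaged 86.16 normalized counts per kb and stood at rank 5, behind Timp2, Timp3, Timp1 and Adamts1; without any other single library it stayed at rank 2.

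**Figure D1:**
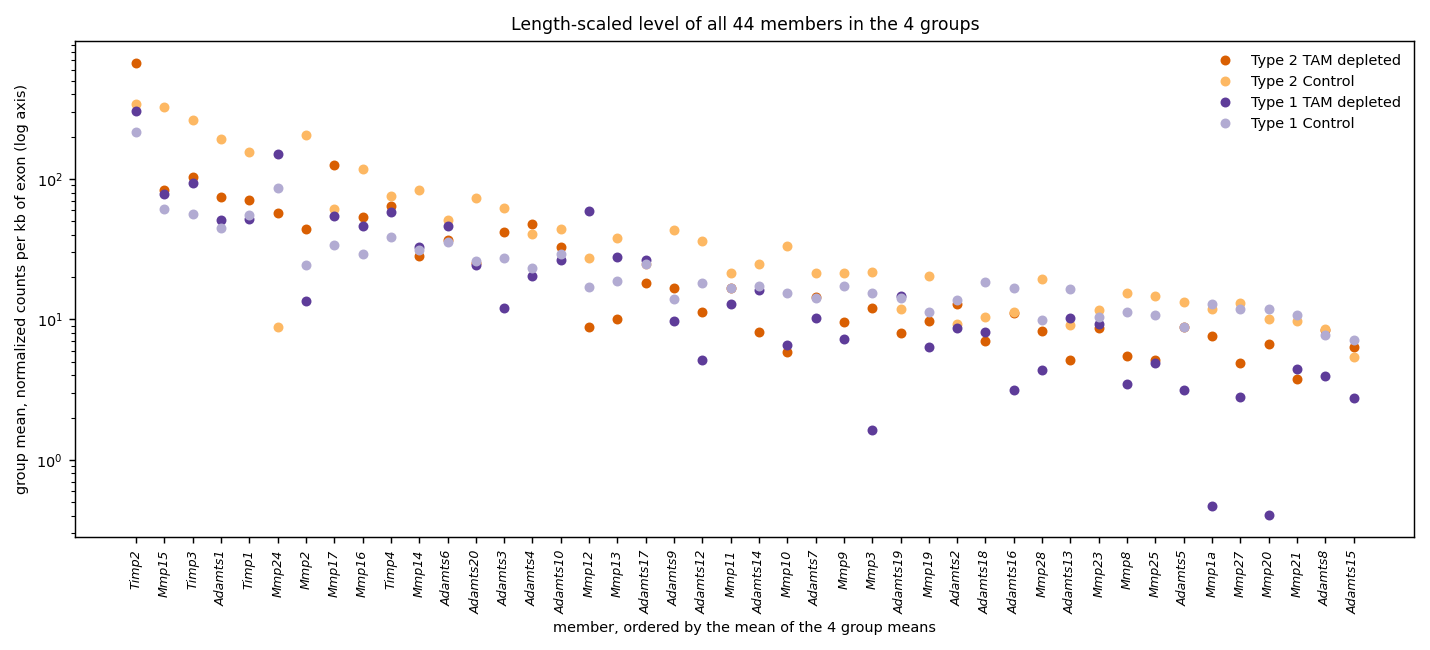
Mean level of each of the 44 members in the 4 groups, in normalized counts per kb of exon on a log axis, with members ordered by the average of the group means. Timp2 stands highest at 381.8 and Adamts15 lowest at 5.41.

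In Type 2 tumours, 3 of the 44 members changed with TAM depletion: Mmp24 rose, and Mmp2 and Adamts12 fell (limma-trend on log2(normalized count + 1), Benjamini-Hochberg adjusted p under 0.05). That is 6.82% of members, against 3.61% of all 26463 genes tested (2.37% higher and 1.24% lower). Values in brackets beside an adjusted p are log2 fold changes from this fit. In bulk tissue, fewer cells of a type and less RNA per cell cannot be told apart.

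Mmp24, a membrane-type protease known from neurons, had 130.8, 409, 401.2 and 136 normalized counts in Type 2 TAM depleted tumours, against 28.6, 12.8, 48.08 and 76.49 in Type 2 Control. Every depleted tumour lay above every Control, and both high- and low-background libraries stood on each side. The mean was 269.3 ± 156.9 in the depleted and 41.49 ± 27.43 in the Control tumours (SD, n = 4 each). The log2 fold change was 2.73, or 6.62-fold, with an SE of 0.54 and an adjusted p of 0.0171. The change was 2.62 among high-background libraries and 2.83 among low-background ones. Without Type 2 TAM depleted 2 it was 2.46 with an adjusted p of 0.0515.

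Neuron markers moved the same way as Mmp24: the 10 summed to 22386.2 to 87732.6 normalized counts in Type 2 TAM depleted tumours against 2938.3 to 13634.2 in Type 2 Control, with 10 of 10 higher, 6 past the test and none at 0. Rbfox3, a nuclear protein of mature neurons, rose by 3.30 on the log2 scale (adjusted p = 0.00932). Oligodendrocyte markers were higher in 8 of 8, none past the test, with sums of 11095.2 to 35159.7 normalized counts in depleted against 3392.7 to 16894.5 in Control tumours. Astrocyte markers were higher in 7 of 8, with Aqp4 past the test and sums of 12578.6 to 62857 in depleted against 3470.9 to 17201.6 in Control tumours. In Type 2 TAM depleted tumours 1 to 4 the neuron sums were 33151.9, 87732.6, 22386.2 and 29830 normalized counts. Tumour 2 was highest in both this sum and Mmp24, while tumour 3, with the lowest sum, had 401.2 normalized counts of Mmp24. The part of RNA from these cells in the Mmp24 change was not tested. The 3′ end of Mmp24 (chr2:155775342-155818366, plus strand) shares exon bases with BC029722 on the other strand, and the library kit does not mark strand, so reads there could go to either gene. BC029722 differed by 1.20 (adjusted p = 0.189).

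Mmp2, the gelatinase that cuts denatured collagen and basement membrane, had 304.9, 116.6, 98.15 and 78.67 normalized counts in Type 2 TAM depleted tumours, against 729.2, 1340.5, 443.4 and 248.7 in Type 2 Control. Depleted tumour 1 lay above Control 4, so the groups overlap. The means were 149.6 ± 104.7 in depleted and 690.5 ± 476.2 in Control tumours (SD, n = 4 each). The log2 fold change was -2.14, or 4.42-fold lower in depleted tumours, with an SE of 0.52 and an adjusted p of 0.0342. The call is lost (adjusted p 0.0609 to 0.0915, log2 fold change -2.27 to -1.74) without any of Type 2 TAM depleted 2, 3 or 4 or Type 2 Control 1, 2 or 3. Mmp2 (chr8:92827291-92853420, plus strand) shares no exon with another annotated gene.

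Adamts12, which cuts cartilage oligomeric matrix protein, had 105.2, 79.53, 88.44 and 219.6 normalized counts in Type 2 TAM depleted tumours, against 414.7, 214.8, 497.7 and 459 in Type 2 Control. Depleted tumour 4 lay just above Control 2, and the other depleted tumours lay below every Control. The means were 123.2 ± 65.16 in depleted and 396.5 ± 125.8 in Control tumours (SD, n = 4 each). This is a difference of -1.73 on the log2 scale, 3.32-fold lower in depleted tumours, with an SE of 0.36 and an adjusted p of 0.0194. The adjusted p was 0.0505 without Type 2 TAM depleted 1, 0.0597 without Type 2 TAM depleted 2 and 0.072 without Type 2 Control 3.

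**Figure D2:**
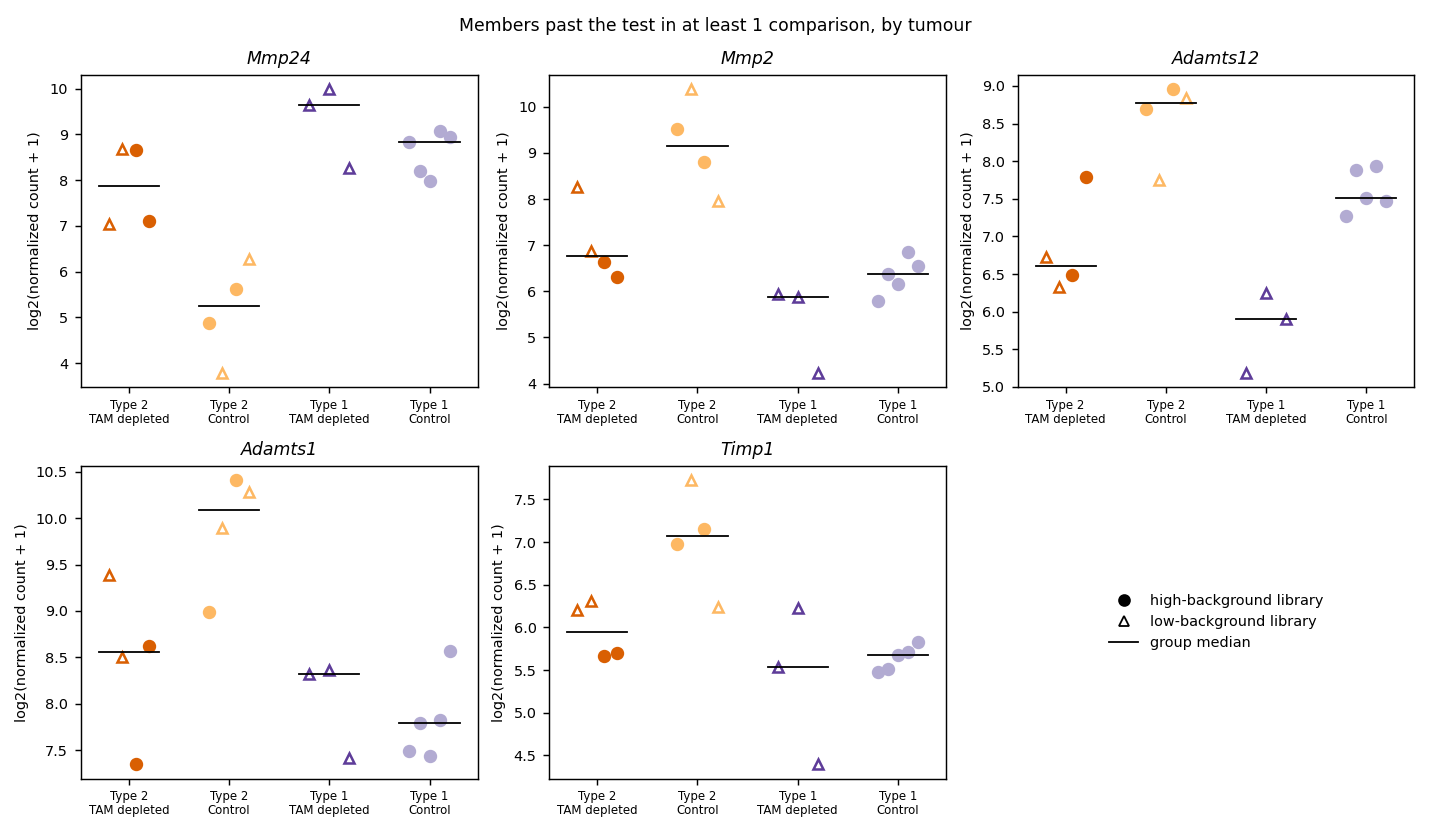
log2(normalized count + 1) of the 5 members past the test in some comparison, 1 point for each tumour and a line at each group median, with filled circles for high-background and open triangles for low-background libraries. Mmp24 has its lowest group median in Type 2 Control, and the other 4 have their highest group median there.

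Fibroblast and meningeal markers moved the same way as Mmp2 and Adamts12. They summed to 1560.7 to 4666.9 normalized counts in Type 2 TAM depleted tumours against 3907 to 10536.6 in Type 2 Control, with 7 of 7 lower and 1 (Postn) past the test. Macrophage markers were lower too, as given above. Oligodendrocyte precursor markers were lower in 4 of 6, with Sox10 past the test. Mural markers were lower in 6 of 7, endothelial markers in 6 of 8 and neutrophil markers in 3 of 3, none past the test. T cell markers were lower in 6 of 6, none past the test, with sums of 31.29 to 313.1 normalized counts in Type 2 TAM depleted tumours against 293.8 to 444.6 in Type 2 Control. Y-linked genes summed to 0 to 17.07 normalized counts in Type 2 TAM depleted tumours against 132.3 to 498.6 in Type 2 Control, with 4 of 4 lower and past the test. In Type 1 the Y-linked sums were 0.57 to 105.3 in TAM depleted tumours against 115.5 to 821.1 in Control, with 4 of 4 lower and none past the test. The X-linked RNA Xist had reads in every library, from 2029 in Type 1 Control 5 to 53358 in Type 2 Control 2. Since Y-linked sums split by treatment in both types, the sex make-up of the samples and treatment cannot be told apart. The part of the cell markers in the results was not tested.

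The other 41 members did not pass the test in Type 2. Of all 44, 8 were higher and 36 lower in the depleted tumours, with a median log2 fold change of -0.95, against 59.4% lower and a median of -0.21 over all genes. Scaling by the upper quartile moves the all-gene median to -0.41 in this comparison, and relative to the main median the called members differed by 2.93 for Mmp24, -1.94 for Mmp2 and -1.53 for Adamts12. At an unadjusted p under 0.05 stood 16 members (36.4%), against 18.0% of all genes. Besides Mmp24, 1 member, Mmp25, had groups that did not overlap. This leukocyte membrane protease had 4.55, 24.52, 34.52 and 45.89 normalized counts in depleted tumours and 64.34, 76.79, 101.5 and 67.43 in Control tumours (log2 fold change -1.81, adjusted p = 0.072). Groups not overlapping downward were 3.39% of all genes, and upward 3.86%.

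By role, the 3 collagenases, 3 stromelysins, 2 gelatinases and 7 others (among them macrophage elastase Mmp12) all lay lower in Type 2 TAM depleted tumours. Mmp2 alone of these passed the test. Some shifts were smaller than their SE, such as Mmp3 (-0.25, SE 0.83), Mmp11 (-0.22, SE 0.48) and Mmp1a (-0.92, SE 1.28). The 8 genes of the chromosome 9 cluster are among them, and 3 and 4 of those had 0 reads in Type 2 TAM depleted 1 and 2. Mmp8, Mmp1a, Mmp27 and Mmp20 also separated by library background within Type 2. Mmp9, the gelatinase of neutrophils and macrophages, had 2.28, 20.93, 46.38 and 65.56 normalized counts in depleted tumours against 35.75, 38.95, 89.04 and 139.4 in Control tumours (log2 fold change -1.59, adjusted p = 0.252). Mmp14, the membrane enzyme that activates Mmp2, had 98.41, 313.3, 120.8 and 142.6 in depleted tumours against 146.6, 644.9, 701.6 and 503.1 in Control tumours (-1.49, adjusted p = 0.0743). Of the 6 membrane-type genes 2 were higher, Mmp24 and Mmp17 (0.80, adjusted p = 0.538), and 4 lower, among them Mmp15 (-1.40, adjusted p = 0.194) and Mmp16 (-1.15, adjusted p = 0.407). Of 7 proteoglycan-cutting Adamts genes 3 were higher and 4 lower, and none passed. The nearest was Adamts1, a protease of versican and aggrecan, at -1.43 (adjusted p = 0.0669).

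In Type 1 tumours no member passed the test, as no gene did (0.0% of 26463). At an unadjusted p under 0.05 stood 9 members by limma-trend (20.5%, against 30.3% of all genes) and 11 by limma-voom, which also called none after adjustment. In this comparison 12 members were higher and 32 lower, with a median of -0.60, against 51.5% lower and a median of -0.06 over all genes. This split moved with the setting. It was 5 higher and 39 lower under upper quartile scaling (median -0.99, all genes -0.44). With the receptor-read background as a term it was 17 higher and 27 lower (median -0.34, all genes 0.04). That term was set by the Type 2 libraries alone, as neither Type 1 group held both kinds. It cannot separate background from treatment in Type 1. The groups of 11 members did not overlap, all lower in Type 1 TAM depleted tumours, against 28.6% of all genes, so a share of 25.0% is no more than the background. Adamts12 had 35.38, 75.04 and 59.01 normalized counts in depleted tumours, against 152.9, 235.4, 181.2, 244.2 and 176.8 in Control tumours, without overlap (-1.83, adjusted p = 0.103).

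Mmp24 in Type 1 had 793, 1019.7 and 307.1 normalized counts in depleted tumours and 455.6, 294.3, 251.2, 541.2 and 487.2 in Control tumours (0.69, adjusted p = 0.38), and the groups overlap. Mmp2 had 60.65, 58.1 and 17.76 in depleted tumours and 54.75, 81.82, 69.99, 114.6 and 92.03 in Control tumours (-0.99, adjusted p = 0.216). Whether the depletion response differs between the tumour types was tested directly, as the difference of the Type 2 and Type 1 log2 fold changes. No member and no gene passed (0.0%), with 8 members at an unadjusted p under 0.05 by limma-trend (10.1% of all genes) and 9 by limma-voom. The difference was above 0 for 19 of the 44 members, against 56.0% of all genes. For Mmp24 the difference was 2.03 (adjusted p = 0.472), so a change in Type 2 and none called in Type 1 is not shown to differ.

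The Control tumours of the models were compared next, and this shares the 4 Type 2 Control libraries with the Type 2 depletion comparison. 4 members changed: Mmp2, Adamts1 and Timp1 rose and Mmp24 fell in Type 2 Control relative to Type 1 Control, 9.09% of members against 3.09% of all genes (2.28% higher and 0.816% lower).

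Mmp24 had 28.6, 12.8, 48.08 and 76.49 normalized counts in Type 2 Control tumours, against 455.6, 294.3, 251.2, 541.2 and 487.2 in Type 1 Control. Every Type 2 Control lay below every Type 1 Control, at a mean of 41.49 ± 27.43 (SD, n = 4) and 405.9 ± 126.3 (SD, n = 5). The log2 fold change was -3.46 (SE 0.51, adjusted p = 0.000959, 11.04-fold lower in Type 2 Control). All 10 neuron markers were lower in Type 2 Control, with 2 past the test, and their sum was 2938.3 to 13634.2 normalized counts against 11886.9 to 29662.5 in Type 1 Control. Their part was not tested.

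Mmp2 had 729.2, 1340.5, 443.4 and 248.7 normalized counts in Type 2 Control, against 54.75, 81.82, 69.99, 114.6 and 92.03 in Type 1 Control. The groups did not overlap, with means of 690.5 ± 476.2 (SD, n = 4) in Type 2 Control and 82.63 ± 22.62 (SD, n = 5) in Type 1 Control and a log2 fold change of 2.82 (7.07-fold, SE 0.50, adjusted p = 0.00381). Adamts1 (chr16:85793827-85803113, minus strand) had 507.6, 952.6, 1359.6 and 1240.9 in Type 2 Control, against 178.7, 221, 172.5, 226.1 and 378.9 in Type 1 Control, again with no overlap. Its means were 1015.2 ± 379.1 in Type 2 Control and 235.5 ± 83.77 in Type 1 Control (log2 fold change 2.07, SE 0.40, adjusted p = 0.0069, 4.20-fold).

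Timp1, an inhibitor of most secreted metalloproteases, had 125.1, 210.9, 141.6 and 74.79 normalized counts in Type 2 Control and 43.39, 44.5, 49.99, 51.26 and 55.94 in Type 1 Control. The Type 1 Controls lay close together and below every Type 2 Control. The means were 138.1 ± 56.24 in Type 2 Control and 49.01 ± 5.15 in Type 1 Control (log2 fold change 1.39, SE 0.36, adjusted p = 0.0472, 2.62-fold). This call is near the threshold and is lost without any single Type 1 Control (adjusted p 0.0783 to 0.105). It is also lost without Type 2 Control 1 (0.059), 2 (0.143) or 3 (0.122).

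Fibroblast and meningeal markers lay with Mmp2, Adamts1 and Timp1: 7 of 7 were higher in Type 2 Control, 3 past the test, with sums of 3907 to 10536.6 normalized counts against 790 to 1508.5 in Type 1 Control. Oligodendrocyte precursor markers were higher in 6 of 6, with 4 past the test. Pdgfra stands in both of these lists, and its call is counted in each. Macrophage and microglia markers were higher in 14 of 14, none past the test, with sums of 3801.9 to 9988.9 normalized counts in Type 2 Control against 1896.1 to 3645 in Type 1 Control. Of 8 endothelial markers 6 were higher, 1 past the test (Slc2a1), with sums of 2059 to 3021 in Type 2 Control against 1351 to 1626.3 in Type 1 Control. What part these cells have in the results was not tested. Among the high-background libraries, 2 Type 2 Controls against 5 Type 1 Controls, the 4 calls stood, at -3.35 for Mmp24, 2.81 for Mmp2, 1.88 for Adamts1 and 1.43 for Timp1 (adjusted p 0.00042, 0.00106, 0.0235 and 0.0303).

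Over all members, 30 were higher and 14 lower in Type 2 Control than in Type 1 Control, with a median of 0.49. Over all genes 37.8% were higher and 62.2% lower, and the median was -0.23. With the background term 38 members were higher and 6 lower, with a median of 0.65, against 0.13 over all genes. That term was set by the Type 2 libraries alone, as all Type 1 Controls were high. Among high-background libraries 36 were higher and 8 lower, with a median of 0.63, again against 0.13 over all genes. The groups of Mmp15 and Adamts9 also did not overlap, both higher in Type 2 Control, which with Mmp2, Adamts1 and Timp1 makes 5 members, against 5.03% of all genes. Mmp24 was the 1 member without overlap in the other direction, against 1.93% of genes. Mmp14 differed by 1.22 (adjusted p = 0.158), Mmp16 by 1.90 (adjusted p = 0.151), Mmp15 by 1.75 (adjusted p = 0.103) and Mmp9 by 0.15 (adjusted p = 0.92). The all-gene median moves to -0.34 under upper quartile scaling.

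Between the depleted tumours, Type 2 against Type 1, no member passed the test, against 0.185% of all genes (49 genes, 0.0567% higher and 0.128% lower). In direction 29 members were higher, against 55.8% of all genes. At an unadjusted p under 0.05 stood 11 members by limma-trend (25.0%, against 12.1% of all genes) and 11 by limma-voom, and limma-voom called none after adjustment. Adamts4, Adamts8, Adamts12 and Mmp2 did not overlap and were higher in Type 2 TAM depleted tumours, against 3.3% of all genes, and no member was without overlap in the other direction, against 5.77%. Adamts4, an aggrecanase, had 327.1, 237.4, 212.5 and 147.5 normalized counts there and 83.12, 97.43 and 114.6 in Type 1 TAM depleted tumours (1.18, adjusted p = 0.266). Mmp2 differed by 1.67 (adjusted p = 0.26) and Mmp24 by -1.43 (adjusted p = 0.338). Neuron markers did not go with Mmp24 here: 8 of 10 were higher in Type 2 TAM depleted tumours, none past the test.

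**Figure D3:**
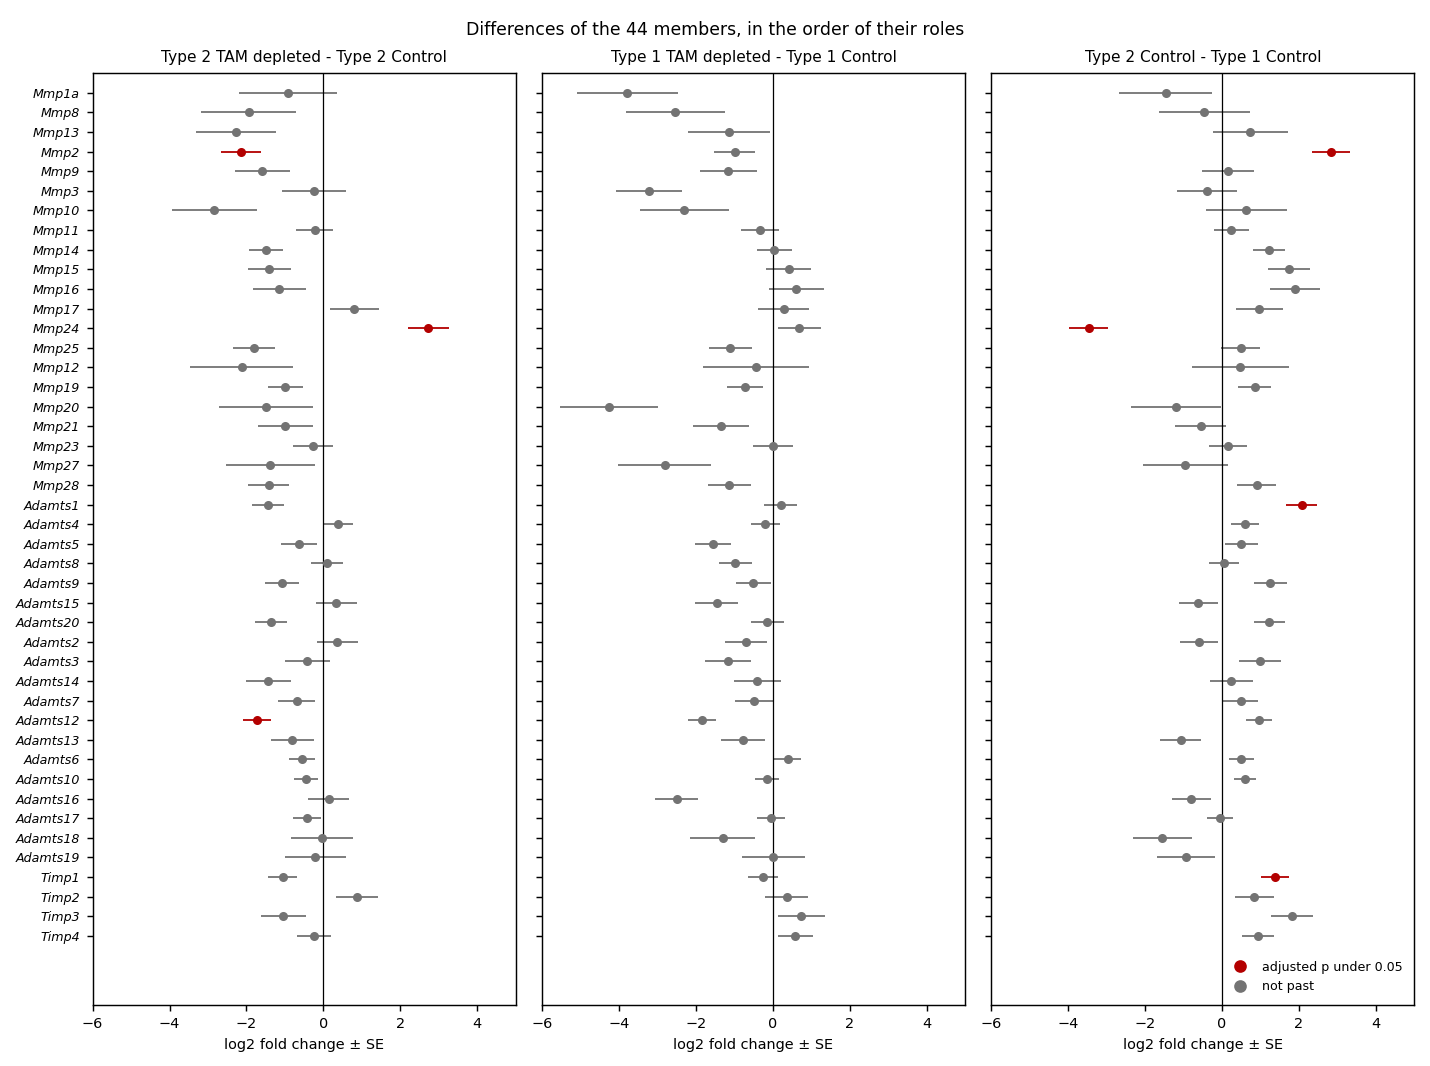
log2 fold change ± SE of each of the 44 members in 3 comparisons, in the order of their roles, with red points for members past the test and grey for the others. Mmp24 and Mmp2 are red in the Type 2 depletion and the Control comparisons, with opposite signs in each, and no member is red in Type 1.

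The 4 tissue inhibitors block the proteases above to differing degrees, and none of the 4 passed the test with depletion in either type. Timp2 had 2937.6, 4188.6, 1459.3 and 1801.3 normalized counts in Type 2 TAM depleted and 1329.7, 1510.2, 867.2 and 1603.5 in Type 2 Control tumours (0.88, adjusted p = 0.42). Timp3, which also blocks Adamts4 and Adamts5, had 1196.3, 1266.4, 423.9 and 458.9 in Type 2 TAM depleted tumours against 647, 2423.9, 4790.2 and 707.7 in Type 2 Control (-1.04, adjusted p = 0.37). In both genes 1 or more tumours of a group lay within the range of the other.

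Timp4 had 521.1, 529.8, 183.4 and 291.7 normalized counts in Type 2 TAM depleted and 214.5, 441.3, 430.9 and 700.9 in Type 2 Control tumours (-0.24, adjusted p = 0.791). For Timp1, with 72.82, 78.33, 49.62 and 50.81 normalized counts in the depleted tumours against 125.1, 210.9, 141.6 and 74.79 in the Controls, the means were 62.89 ± 14.82 in depleted and 138.1 ± 56.24 in Control tumours (SD, n = 4 each). The log2 fold change was -1.06 with an SE of 0.38, and limma-trend gave an unadjusted p of 0.0136 and an adjusted p of 0.142. Depleted tumours 1 and 2, the low-background ones, lay above depleted tumours 3 and 4 in all 4 inhibitors.

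In Type 1 the log2 fold changes were -0.25 for Timp1, 0.37 for Timp2, 0.74 for Timp3 and 0.59 for Timp4 (adjusted p 0.654, 0.644, 0.384 and 0.365). That made 3 higher and 1 lower in Type 1 TAM depleted tumours. The split was 2 and 2 under upper quartile scaling or with a replicate block. With a background term, set by the Type 2 libraries alone, it was 1 and 3. Between the Controls all 4 were higher in Type 2 Control, Timp2 by 0.84 (adjusted p = 0.517), Timp3 by 1.82 (adjusted p = 0.0966) and Timp4 by 0.94 (adjusted p = 0.322), and Timp1 alone passed the test.

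3 of the 4 inhibitor genes lie inside a synapsin gene on the other strand, and the kit does not mark strand. Timp3 shares exon bases with Syn3, and Timp4 with Syn2, while the exons of Timp1 and Syn1 do not overlap. Syn1 rose by 3.66 in Type 2 TAM depleted tumours (adjusted p = 0.0176), Syn2 differed by 2.10 (adjusted p = 0.125) and Syn3 by 0.37 (adjusted p = 0.555). Reads of the overlapping exons could go to either gene.

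**Figure D4:**
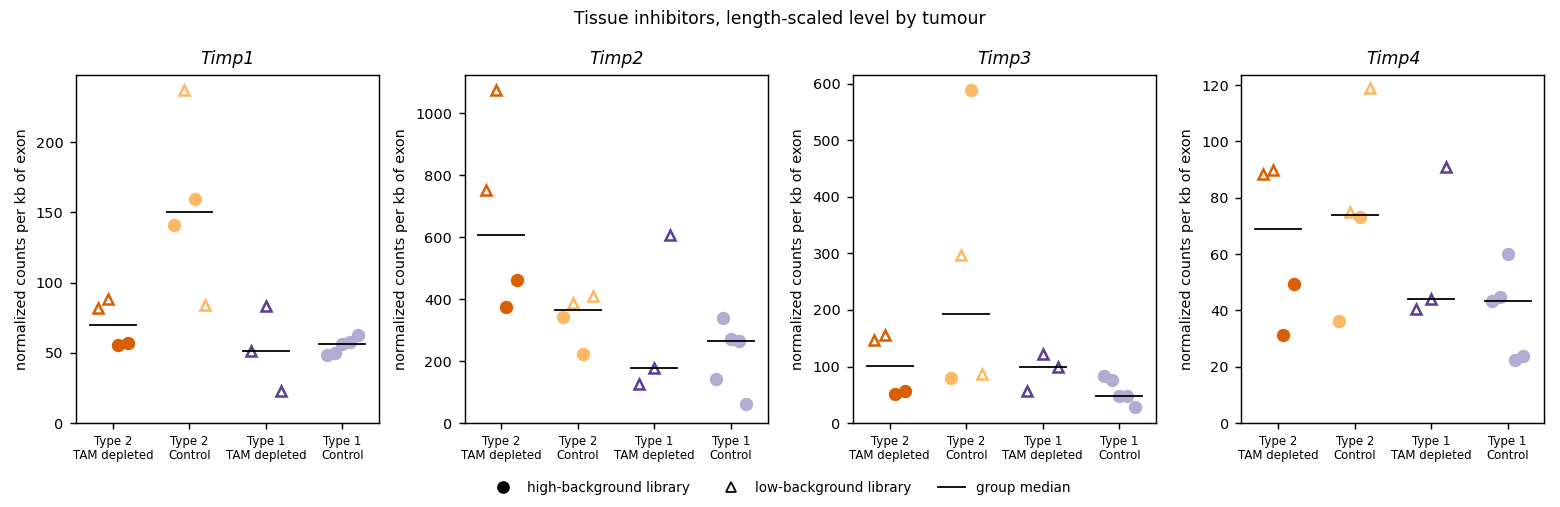
Level of each tissue inhibitor by tumour, in normalized counts per kb of exon from 0, with a line at each group median, filled circles for high-background and open triangles for low-background libraries. Timp1 has its highest median in Type 2 Control, and depleted and Control tumours of either type overlap for all 4 inhibitors.

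Genes around the proteases, from lists of plasminogen activation, activators and partners, ADAM proteases, ADAMTS-like proteins and brain matrix, were read for the same comparisons. In Type 2 tumours with TAM depletion 1 of 11 plasminogen genes rose, Serpini1, an inhibitor of tissue plasminogen activator made by neurons, by 2.91 (adjusted p = 0.0194). Of 16 activators and partners 2 fell, Thbs1 (-1.72, adjusted p = 0.0311) and Thbs2 (-1.63, adjusted p = 0.022), matrix proteins that bind metalloproteases. Adam12 fell (-1.94, adjusted p = 0.0122) among 11 ADAM genes, and none of the 7 ADAMTS-like genes changed. Adam22, a neuronal receptor without protease activity, rose to 2052.6 ± 1081.8 normalized counts in Type 2 TAM depleted tumours, against 705.5 ± 295.9 in Type 2 Control (SD, n = 4 each, adjusted p = 0.0338).

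Of 10 brain matrix genes, which include substrates of these proteases, 3 changed with depletion in Type 2. Acan, which encodes aggrecan, fell to 373.6 ± 280.6 normalized counts in Type 2 TAM depleted tumours, against 5615 ± 6568.3 in Type 2 Control (SD, n = 4 each, -3.47, adjusted p = 0.0291). Hapln1, a link protein of hyaluronan, fell too (-2.96, adjusted p = 0.0446), and Hapln4, the link protein of neuronal nets, rose (2.02, adjusted p = 0.0231).

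Between the Controls, Acan was higher in Type 2 Control by 4.76 and Hapln1 by 4.57 (adjusted p = 0.00193 each). The same held for Adam12 (2.31, adjusted p = 0.00086), Pcolce, Cd44, Pcsk6, Thbs1, Thbs2 and Serpine2, 5 of 16 activators and partners and 1 of 11 plasminogen genes. In Type 1 none of the 55 genes of these lists passed the test with TAM depletion.

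8 Mmp genes lie within 402.5 kb on chromosome 9 (chr9:7272514-7674979), in the order Mmp13, Mmp12, Mmp3, Mmp1a, Mmp10, Mmp8, Mmp27 and Mmp20. Their summed normalized count ran from 222.2 to 882.9 (median 343.1) in the 9 high-background libraries and from 8.02 to 1494.7 (median 99.96) in the 7 low-background ones. In Type 1 TAM depleted 3, 5 of the 8 genes had 0 reads, and in Type 2 TAM depleted 1 and 2, 3 and 4 genes did, with 3 reads equal to about 1.7 to 1.8 normalized counts there.

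For Mmp1a, a collagenase, and Mmp20, the enamel protease, every high-background library lay above every low-background one, which 16.5% of all genes also do. Mmp1a has a paralog, Mmp1b, and how reads were shared between them was not tested. Within Type 2, 7 of the 44 members had this pattern (Mmp8, Mmp20, Mmp27, Mmp1a, Adamts5, Adamts13 and Adamts18), against 20.7% of all genes. None of the 5 members past the test did.

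Type 1 TAM depleted 2 stood apart, with 1210.9 normalized counts of Mmp12, the macrophage elastase, against 70.76 and 4.01 in depleted tumours 1 and 3. Mmp13 there was 208.8, against 11.23 and 3.44. Macrophage and microglia markers in that library summed to 3428.2 normalized counts, against 1837 and 1659.7 in the other depleted Type 1 tumours, and their part was not tested.

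**Figure D5:**
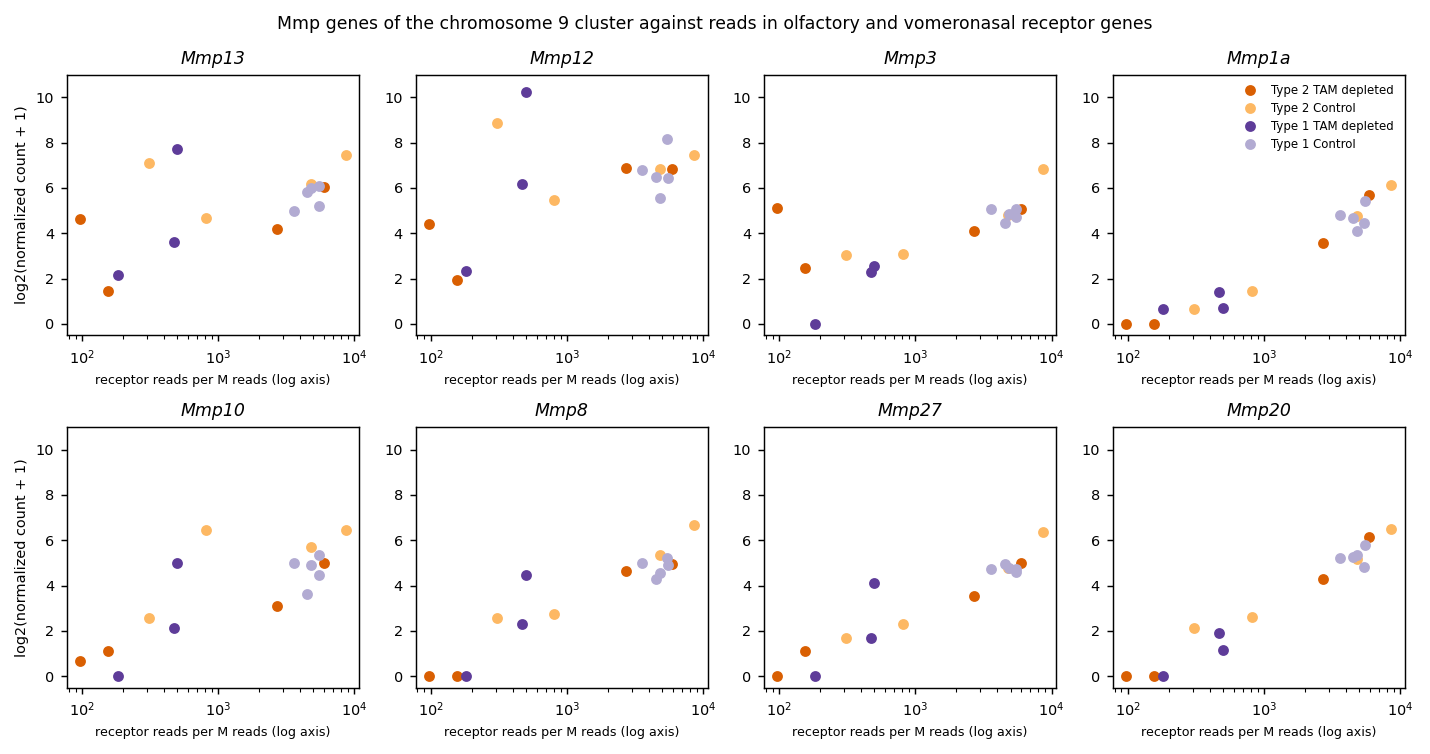
log2(normalized count + 1) of the 8 Mmp genes of the chromosome 9 cluster in each of the 16 libraries, against reads in receptor genes per M reads on a log axis, coloured by group. Mmp1a and Mmp20 are higher in every high-background library than in any low-background one, while Mmp12 and Mmp13 reach 1210.9 and 208.8 normalized counts in 1 low-background tumour.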

How the data were processed

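Total RNA of 16 transplanted tumours was made into SMART-Seq v4 libraries, per the labels' protocols, a kit that does not mark strand. Per the submitters' processing notes the tools were STAR 2.7.8a and DESeq2 on GRCm38. The deposited table holds log2 values, which the authors made by the variance-stabilizing transformation of DESeq2, as read from the values. Inverting it gave normalized counts that were whole multiples of 1 read in 100% of values (tolerance 0.05 reads), and so the reads and size factors per library.

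Since the deposited unit is log2 and not counts, limma-trend (limma 3.58.1, R 4.3.3) was run on log2(normalized count + 1), with 1 mean per group over all 16 libraries (12 residual degrees of freedom) and Benjamini-Hochberg adjustment over 26463 genes (3 or more libraries with a normalized count reaching 10); the threshold was 0.05. A log2 fold change on this scale understates the change of low genes. The 5 comparisons were Type 2 and Type 1 depletion, their difference, and the types against each other among Control and among depleted tumours. Precision covers counting error and spread between samples; depth is given with the groups. Levels per kb used the exon union of GENCODE vM21.

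Named were all members past the threshold in any comparison, the 4 inhibitors, Mmp2, Mmp9, Mmp14 and the 10 with the highest level per length, and from other lists up to 3 genes per list past the threshold; genes named outside this rule were chosen after their values were seen. Members and lists were chosen with earlier results of these data known. Alternatives were a pseudocount of 8, no filter, upper quartile scaling, limma-voom, a replicate block, a background term, high- or low-background libraries alone and leaving out each library. The script was tested on simulated data. The other tables of the series, made per tumour type, held identical reads for the genes they share and were not used further.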

Additional observations from a re-analysis of the deposited data

Results flagged for a closer look

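Values of 1 tumour far from the others of its group were sought by a gap-to-range test in the 39 groups of 4 or 5 tumours formed by the named members, and 4 were found. Chance gives about 1 in 20 such groups. In Type 2 TAM depleted tumours, Mmp2 was 304.9 normalized counts in tumour 1 and 116.6 in the nearest other, in a low-background library. In Type 2 Control, Mmp15 was 5025.8 in tumour 4 and 793.3 in the nearest other, the library with high choroid plexus markers. In Type 1 Control, Adamts1 was 378.9 in tumour 5 with 226.1 in the nearest other, and Mmp9 was 108.7 in tumour 3 with 55.94 in the nearest other.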

How the results depend on the processing

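A pseudocount of 8, no filter and limma-voom left the count of members past the test within 1.5 times in all comparisons. For Type 2 depletion, 3 members became 5 under upper quartile scaling, 7 with a background term, 0 among low-background libraries alone and 0 to 4 leaving out 1 library (0 without Type 2 TAM depleted 2, 1 without Type 2 Control 3). In the same comparison 956 genes became 2635 with a background term, 525 among high-background and 0 among low-background libraries alone, and 100 to 1259 leaving out 1 library. Within high-background libraries Adamts12 gave -1.70 (adjusted p = 0.252), and within low-background ones Mmp24 gave 2.83 (0.37), Mmp2 -1.61 (0.47) and Adamts12 -1.77 (0.366). Either set holds 2 against 2 tumours.

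The background term gave 166 genes in place of 0 for the difference of responses, and, between depleted tumours, 1 member (Adamts4) in place of 0 and 215 genes in place of 49. Between Controls 819 genes (603 higher, 216 lower) became 2343 by limma-voom (902 higher, 1441 lower), 1305 among high-background libraries (478 higher, 827 lower) and 510 to 1141 leaving out 1 library. Between depleted tumours 49 genes became 20 among low-background libraries and 12 to 234 leaving out 1 library. Both high- and low-background restrictions across types were chosen after seeing the data. Timp1 between Controls missed the threshold under upper quartile scaling (1.28, adjusted p = 0.0601) and with a background term (1.26, adjusted p = 0.0948). In Type 2 depletion upper quartile scaling gave 673 genes higher and 616 lower, against 627 and 329. The cause was not tested.

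With the replicate block, Type 2 depletion gave 1 member (Adamts12) and 297 genes, the difference of responses 1 gene, the Controls 347 genes, and the depleted tumours 16 genes; Mmp24 and Mmp2 had adjusted p of 0.0535 and 0.0574, and Timp1 between Controls 0.0981. Same-numbered depleted and Control tumours correlated at -0.675, 0.495, 0.303 and -0.602 in Type 2 and at -0.0525, -0.158 and 0.371 in Type 1. Differently numbered ones in Type 1 lay at -0.378 to 0.212. In Type 2 the sign followed library background, whatever the number. Pairs of like background lay at 0.303 to 0.776 and mixed pairs at -0.788 to -0.395. These values therefore cannot show whether numbers pair the Type 2 samples.

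With a background term the Mmp genes were 11 higher and 10 lower in place of 6 and 15 in Type 1 depletion. Between Controls they were 20 and 1 in place of 14 and 7. Type 2 libraries alone set that term, so in Type 1 it cannot separate background from treatment. Among the results recomputed singly, those that changed sign were inhibitors not past the test. In Type 1, Timp2 (0.37) became -0.028 under upper quartile scaling, -0.020 with the replicate block, -0.46 with a background term, and -0.31 to 0.83 leaving out 1 library, Timp4 became -0.44 with a background term, and Timp1 (-0.25) ran from -0.67 to 0.24. In Type 2, Timp4 (-0.24) ran from -0.55 to 0.070. Depth limits genes near 3 reads, such as the chromosome 9 cluster in low-background libraries.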
